A study of Mus musculus with 9 samples.

Results

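The genes described here are the 4 genes of the ID family (Id1, Id2, Id3 and Id4), the inhibitory SMAD genes Smad6 and Smad7, and 4 ligand genes of the TGF-beta superfamily (Bmp4, Tgfb1, Tgfb2 and Tgfb3). They were taken by gene symbol from a table of 55492 rows, and all 10 were found, each on 1 row. They were read in 9 poly(A) RNA libraries of the D2.0R line, which derives from a murine mammary adenocarcinoma and is spelled D2.OR in some labels. All cells had been loaded with the division-diluted dye CellTrace Far Red and kept for 1 week in DMEM with 2% serum before sorting into dye-positive, quiescent cells and dye-negative, proliferative cells. The labels name no genotype or drug treatment. Sorted dye-positive cells, sorted dye-negative cells and bulk cells are the 3 kinds of sample in the labels, which tie none of the 9 libraries to a kind, so 0 libraries were assigned to a group. Libraries are named by the number in their title, and no library is read as quiescent or proliferating. No source used here says whether the libraries came from separate cultures.

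Bone morphogenetic proteins (BMPs) and TGF-betas bind paired serine/threonine kinase receptors, which phosphorylate receptor-regulated SMAD proteins that enter the nucleus with SMAD4. BMP receptors act mainly through SMAD1, SMAD5 and SMAD9, and TGF-beta and activin receptors mainly through SMAD2 and SMAD3. ID proteins are helix-loop-helix proteins without a DNA-binding region that pair with E proteins and keep them off DNA, and their genes are well-known BMP targets. SMAD6 and SMAD7 are themselves induced by these pathways and dampen them, SMAD6 mainly on the BMP side. In mammary tumour cells TGF-beta is known both as a brake on division and as an inducer of mesenchymal traits.

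Estimated counts summed to 18732737 in the shallowest library (9) and to 41243036 in the deepest (7). Values are CPM, a gene's counts scaled to a common library size with TMM factors. A count of 3, used as the floor, was worth between 0.0742 CPM (library 7) and 0.164 CPM (library 9). The leukocyte and NK cell markers were at or near 0, with all 8 under 1 CPM in every library and 4 of them at 0 counts throughout. Of 9 epithelial markers 5 stayed under 1 CPM in every library, Epcam (at most 0.219 CPM), Krt5 and Krt19 among them, and Krt14 reached 1.31 CPM. The other 3, all tested, were Krt8 (146 to 662 CPM), Krt18 (38.0 to 156 CPM) and Cdh1, the E-cadherin gene (5.46 to 13.0 CPM). Of 8 mesenchymal markers, Cdh2 stayed under 1 CPM in every library (at most 0.816 CPM) and Zeb1 reached 3.90 CPM. Vim reached 5849 CPM and Fn1 14672 CPM, and Col1a1, Col3a1, Pdgfrb and Twist1 reached 4224, 2984, 526 and 122 CPM.

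Promoter sequence was available for 7 of the 10 members in a RefSeq table on GRCm38.p6, in windows from 250 bases before to 50 bases after each gene's start. Id1, Smad7 and Tgfb3 had no entry. The windows were searched on both strands for GGCGCC and GGAGCC, which are GC-rich elements bound by BMP-activated SMADs, for the SMAD box CAGAC, for the E-box CANNTG that E proteins bind, and for the palindrome GTCTAGAC, a SMAD-binding element that was added after the sequences were seen. Matches of different motifs can share end letters, but none of those printed here overlap. Stretches are shown for Smad6 and Id3, because those genes had nearly the same order over the libraries, and for Tgfb2, whose order resembled theirs with a smaller range. Capitals mark motif matches, and sequences run 5′ to 3′ on the gene's strand.
Smad6 (chr9:64022056-64022309, minus strand, 250 bases before to 4 after the start): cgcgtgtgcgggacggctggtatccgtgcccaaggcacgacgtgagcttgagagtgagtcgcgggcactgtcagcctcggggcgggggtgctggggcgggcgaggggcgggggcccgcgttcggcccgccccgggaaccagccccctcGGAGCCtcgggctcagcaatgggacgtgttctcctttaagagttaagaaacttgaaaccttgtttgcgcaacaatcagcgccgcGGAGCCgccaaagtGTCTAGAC
Id3, first stretch (chr4:136143632-136143661, plus strand): cgaGGCTCCgctgtcctcggcgtCAGACca
Id3, second stretch (chr4:136143742-136143771, plus strand): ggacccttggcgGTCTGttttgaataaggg
Tgfb2 (chr1:186706185-186706214, minus strand): cacaCAGACccttggtgatcaCAGACagtg
GGCTCC and GTCTG are the opposite-strand forms of GGAGCC and CAGAC. The palindrome GTCTAGAC in the Smad6 window was held by 0.213% of all 32851 promoter windows of that length. GGAGCC was held by 30.8%, GGCGCC by 11.9%, CAGAC by 49.6% and CANNTG by 72.3% of them. The Smad6 window held 2 copies of GGAGCC, the Id3 window 2 of CAGAC and 1 of GGAGCC, and the Tgfb2 window 2 of CAGAC. The Id2 and Id4 windows each held 1 GGCGCC and 1 GGAGCC, and the Tgfb1 and Bmp4 windows 1 GGAGCC each. CANNTG occurred 3 times in the Bmp4 window and once each in those of Smad6, Tgfb2 and Id2. These matches describe the letters in the windows only.

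Id3 was the member of widest range. It stood at 16.8, 77.6 and 21.4 CPM for titles 1 to 3, 13.3, 69.8 and 20.8 CPM for 4 to 6 and 10.2, 52.5 and 14.8 CPM for 7 to 9. Libraries 2, 5 and 8 lay between 52.5 and 77.6 CPM, and the other 6 between 10.2 and 21.4 CPM. The gap between the lowest of the former and the highest of the latter was wider than the spread within either set. How many of all genes had so wide a gap was not counted. These 3 libraries lay above the other 6 without overlap for 19% of all genes tested. The highest library exceeded the lowest 7.58-fold (exact 95% interval 6.84 to 8.43, counting error only). Id3 (ENSMUSG00000007872) is protein-coding and lies on chromosome 4 at 136143497 to 136145755 of GRCm38 in GENCODE M21, which starts the gene upstream of the RefSeq start that the promoter window uses.

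Id1 mostly ran the other way over the same libraries. Its values were 62.3, 20.7 and 41.5 CPM for titles 1 to 3, 56.4, 28.0 and 41.5 CPM for 4 to 6 and 50.6, 33.8 and 33.5 CPM for 7 to 9. Library 2 was the lowest for Id1 and the highest for Id3, and libraries 1, 4 and 7 were the 3 highest for Id1. Libraries 2, 5 and 8 were not the 3 lowest for Id1, as library 9 (33.5 CPM) lay just under library 8 (33.8 CPM). The highest and lowest libraries differed 3.00-fold (exact 95% interval 2.76 to 3.28). Of the 36 pairs of libraries, Id1 and Id3 ordered 7 the same way. This contrast with Id3 was not particular to Id1, since Id3 and Id4 ordered 6 alike, although Id4 rests on low counts. Per kilobase of exon, Id1 was 5.75 times the level of Id3 in library 1, 6.55 times in library 4 and 7.63 times in library 7, but 0.413 times in library 2, 0.620 times in library 5 and 0.994 times in library 8. In libraries 3, 6 and 9 the ratio lay between 2.99 and 3.49. All these ratios depend on the exon lengths used, 1160 bases for Id1 and 1791 for Id3. The length used for Id1 equals its whole span on the chromosome. In CPM, without a length, Id1 was below Id3 in library 8 (33.8 against 52.5 CPM). Id1 (ENSMUSG00000042745) lies on chromosome 2 at 152736251 to 152737410.

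Id2 and Id4 were low. Id2 was at 2.82, 3.61 and 3.14 CPM for titles 1 to 3, 2.18, 2.43 and 1.87 CPM for 4 to 6 and 1.63, 2.63 and 1.26 CPM for 7 to 9. Those values rest on 23 to 127 counts, and the 2.87-fold range has a wide interval (1.83 to 4.69). Libraries 1, 2 and 3 were the highest for Id2 and did not overlap the other 6, a pattern that 3.92% of the 12813 genes tested shared, but the margin between library 1 (2.82 CPM) and library 8 (2.63 CPM) rests on 81 and 96 counts. Id4 was at 2.30, 2.07 and 2.58 CPM for titles 1 to 3, at 3.17, 1.80 and 2.61 for 4 to 6 and at 3.59, 2.52 and 3.72 for 7 to 9. Its 2.06-fold range (1.42 to 3.02) rests on 52 to 145 counts and sits at the 2-fold line. It fell under that line in 9 of 15 alternative settings, to 0.82 on the log2 scale without library 5.

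**Figure D1:**
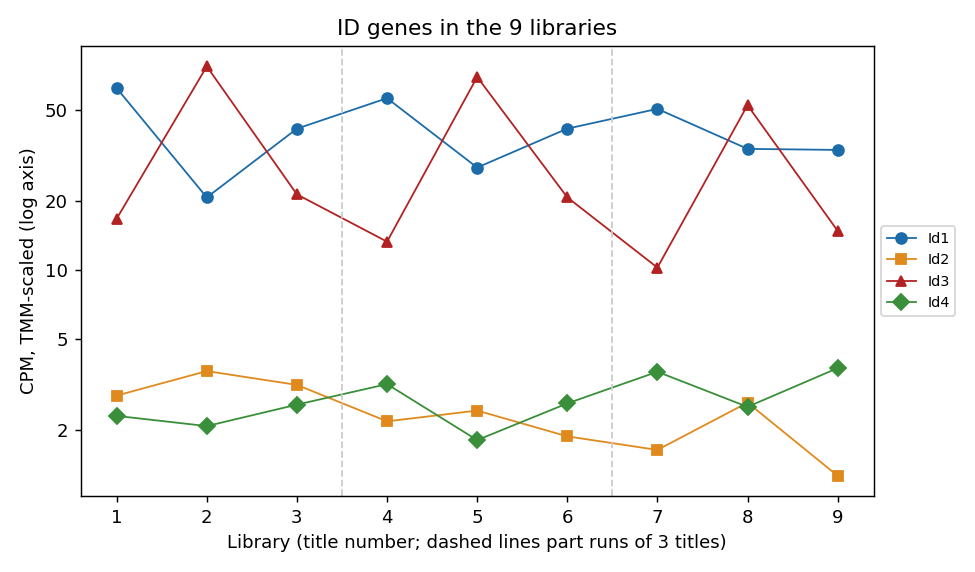
TMM-scaled CPM (log axis) of the 4 ID genes in libraries 1 to 9, in order of title number; thin lines only join the points and dashed lines part runs of 3 titles. Id3 peaks in libraries 2, 5 and 8 at 52.5 to 77.6 CPM, where Id1 lies at 20.7 to 33.8 CPM, and Id2 and Id4 stay under 4 CPM.

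The inhibitory SMAD genes differed from each other. Smad6 was at 21.8, 54.7 and 25.4 CPM for titles 1 to 3, 17.4, 51.6 and 19.2 CPM for 4 to 6 and 13.6, 37.9 and 14.8 CPM for 7 to 9. Libraries 2, 5 and 8 (37.9 to 54.7 CPM) again did not overlap the other 6 (13.6 to 25.4 CPM), and the whole range was 4.01-fold (3.65 to 4.42). Id3 and Smad6 ordered 34 of the 36 pairs of libraries the same way. Smad6 (ENSMUSG00000036867) lies on chromosome 9 at 63953076 to 64022059, and its start is that of the promoter window printed above. Smad7, which dampens both branches, was at 53.6, 42.2 and 44.5 CPM for titles 1 to 3, at 52.8, 43.2 and 42.8 for 4 to 6 and at 48.4, 39.9 and 35.9 for 7 to 9. Its range was 1.49-fold (1.36 to 1.64), with libraries 1, 4 and 7 above the other 6. Smad7 and Id1 ordered 30 of the 36 pairs alike, and Smad7 and Smad6 only 15.

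Among the ligand genes, Tgfb3 followed Id3 and Smad6. It was at 168, 509 and 189 CPM for titles 1 to 3, 154, 432 and 181 CPM for 4 to 6 and 130, 291 and 153 CPM for 7 to 9. Libraries 2, 5 and 8 lay above the other 6 without overlap, and the range was 3.90-fold (3.79 to 4.03). Tgfb3 ordered 35 of the 36 pairs of libraries like Id3 and 35 like Smad6. Tgfb3 (ENSMUSG00000021253) lies on chromosome 12 at 86056745 to 86079041, and its end of transcription overlaps Ttll5 on the opposite strand. Ttll5 held 8664 counts in all 9 libraries together against 71191 for Tgfb3. No source used here states whether counting used strand, so reads from the shared stretch cannot be told apart.

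Tgfb2 had the same 3 libraries on top with less distance. It was at 207, 288 and 202 CPM for titles 1 to 3, at 194, 273 and 175 for 4 to 6 and at 166, 229 and 148 for 7 to 9. The 1.94-fold range (1.86 to 2.02) lay just under the 2-fold line and just over it with library totals alone (1.03 on the log2 scale). Tgfb1 was the most even ligand gene, at 163, 186 and 187 CPM for titles 1 to 3, at 176, 167 and 210 for 4 to 6 and at 168, 149 and 185 for 7 to 9. Its highest and lowest libraries, 6 and 8, differed 1.41-fold (1.36 to 1.46), and its values in libraries 2, 5 and 8 lay within those of the other 6 except for library 8, the lowest. Tgfb1 and Tgfb2 ordered 14 of the 36 pairs alike. Bmp4 had a single count, in library 2, in all 9 libraries together, so no level and no fold can be given. A count of 0 allows a level of up to 0.0742 CPM (library 7) or 0.164 CPM (library 9).

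**Figure D2:**
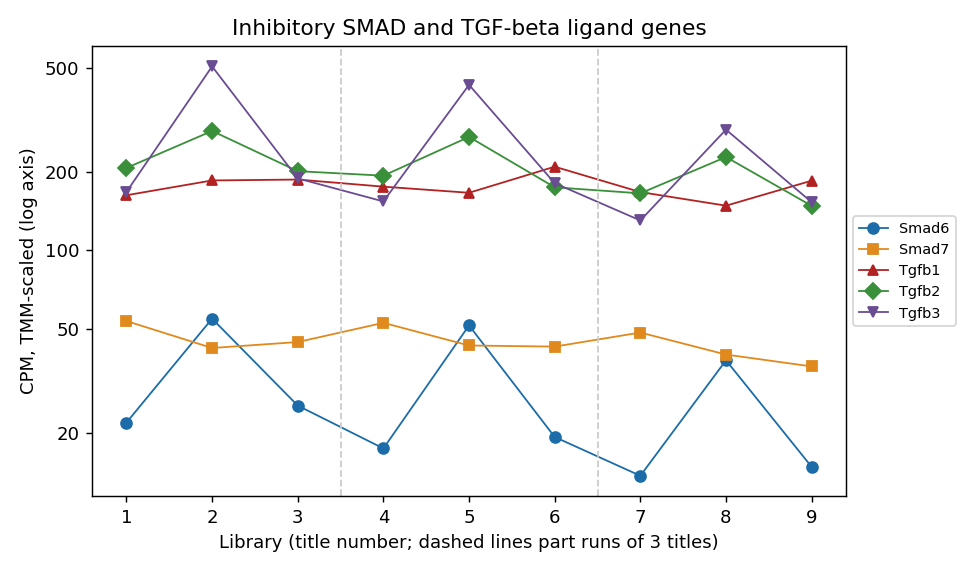
TMM-scaled CPM (log axis) of Smad6, Smad7, Tgfb1, Tgfb2 and Tgfb3 in libraries 1 to 9; thin lines only join the points and dashed lines part runs of 3 titles. Smad6 and Tgfb3 peak in libraries 2, 5 and 8, Tgfb2 does so less, and Smad7 and Tgfb1 stay within 1.49-fold and 1.41-fold.

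Levels of different genes were compared per kilobase of exon, so their order and ratios depend on the exon lengths used. By median CPM per kilobase, the order was Tgfb3 (53.6), Id1 (35.7), Tgfb1 (34.9), Tgfb2 (34.8), Id3 (11.6), Smad7 (9.55), Smad6 (6.81), Id2 (0.995) and Id4 (0.669), with Bmp4 at 0. The ranges of the top 4 overlapped, for example 38.5 to 150 for Tgfb3 and 17.9 to 53.7 for Id1, so their order is not separated by the spread over libraries. Id1 had the highest level of the 10 in 3 libraries (1, 4 and 7) and Tgfb3 in the other 6. Id3 ran from 5.72 to 43.3 CPM per kilobase and overlapped both its neighbours, as did Smad6 and Smad7 with each other, while Id2 and Id4 overlapped each other and lay below all the rest but Bmp4. The ratio of Tgfb3 to Tgfb1 per kilobase was 4.08 in library 2, 3.87 in library 5 and 2.92 in library 8, against 1.16 to 1.53 in the other 6.

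Across all genes, each was tested for spread of its 9 counts beyond counting noise (a chi-square test of dispersion, Benjamini-Hochberg adjustment over the 12813 genes tested). The term variable is kept for genes with an adjusted p below 0.05 whose top and bottom libraries were at least 2-fold apart, 1 on the log2 scale. By this rule 28% of all genes tested were variable. Of the 10 members 9 passed the filter on low counts, all but Bmp4. All 9 varied beyond counting noise, as did 94.1% of all genes tested. Of the 9 members, 6 were variable (Id1, Id2, Id3, Id4, Smad6 and Tgfb3) and 3 were not (Smad7, Tgfb1 and Tgfb2). The adjusted p of the chi-square test was 5.24e-09 for Id2, 1.11e-05 for Id4, 2.91e-31 for Smad7, 1.12e-97 for Tgfb1 and 1.17e-236 for Id1, and it was too small to be represented for Id3, Smad6, Tgfb2 and Tgfb3. Biological spread, sorting and library preparation cannot be told apart by it.

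The titles number the libraries from 1 to 9, and the description that all of them share lists 3 kinds of sample with the numbers 1 to 3 each. No label says how the list and the titles correspond, so runs of 3 titles (1 to 3, 4 to 6, 7 to 9) and places within a run are used here only to arrange the values. The middle library of each run (2, 5, 8) was the highest of its run for 5 of the 9 tested members (Id2, Id3, Smad6, Tgfb2 and Tgfb3), as it was for 28.6% of all genes tested. It was the lowest of its run for Id4, as for 29.5% of all genes. Libraries 2, 5 and 8 lay above the other 6 without overlap for 4 members (Id3, Smad6, Tgfb2 and Tgfb3) against 19% of all genes, and below them for 0 members against 20.1% of all genes. The first library of each run (1, 4, 7) was above the other 6 for Id1 and Smad7, against 6.34% of all genes, and the last (3, 6, 9) was the highest of its run for Tgfb1, against 12.1%. At every place, Id3, Smad6, Tgfb2 and Tgfb3 were lower from the run 1 to 3 to the run 4 to 6 and lower again in the run 7 to 9. Of all genes tested, 12.6% had this pattern and 13.5% the opposite one, which 0 members had.

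**Figure D3:**
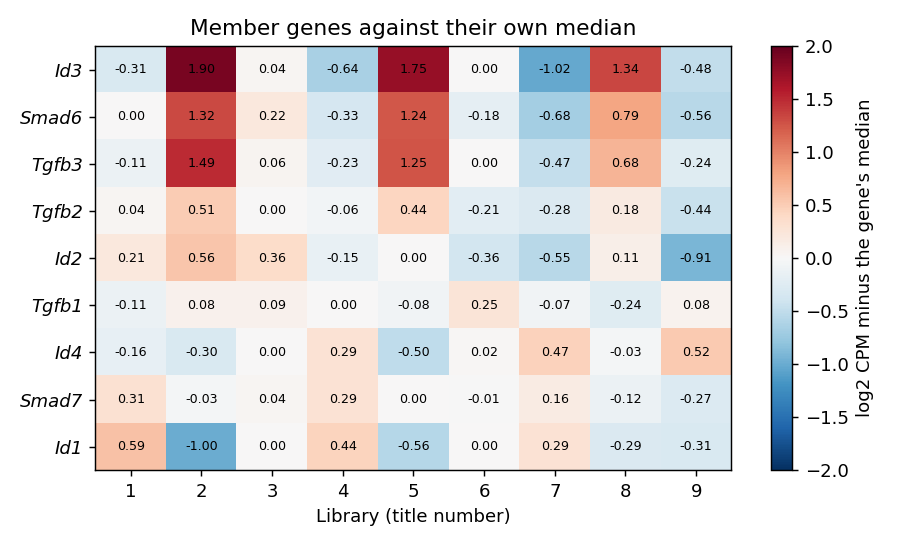
Log2 CPM of the 9 tested members minus each gene's median over the libraries, with the value printed in each cell (red above, blue below the median). Id3, Smad6 and Tgfb3 share red cells in libraries 2, 5 and 8 and are lower in the run 7 to 9, while Id1 is lowest in library 2 at -1.00.

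Libraries 2, 5 and 8 were also the 3 highest for 11 of the 12 genes of the cell division list, all but Aurka, a mitotic kinase gene that was higher in library 7 than in library 2. All 12 were variable, as were 28% of all genes tested, and all 12 were highest in library 8, as were 22.5% of all variable genes. Mki67, which encodes the proliferation marker Ki-67, was at 62.9, 106 and 149 CPM there against 4.98 to 28.1 CPM in the other 6. Among these 3, library 8 was the highest for Mki67 and the lowest for Id3 (52.5 CPM), and library 2 the reverse (77.6 CPM for Id3). Over all libraries Id3 and Mki67 ordered 20 of the 36 pairs alike, Tgfb3 and Mki67 19 and Id1 and Mki67 11. Id3, Tgfb3 and Mki67 each had libraries 2, 5 and 8 above the other 6, so they ordered every pair across that split alike. For Id3 and Tgfb3, the pairs ordered unlike Mki67 all lay within libraries 2, 5 and 8 or within the other 6. The summed level of the 8 mesenchymal markers was 18061 CPM in library 9 to 23754 in library 2, a sum in which Fn1 alone made up 9501 to 14672 CPM. Of 7 tested mesenchymal markers 5 were variable, and 4 of these were highest in library 2, 5 or 8, where 51.9% of all variable genes were highest. These were Col3a1 (7.57-fold), Col1a1 (3.84-fold), Twist1 (2.77-fold) and Pdgfrb (2.43-fold), and Zeb1 was highest in library 1. The 3 tested epithelial markers were variable, Krt8 (4.54-fold) and Cdh1 with their highest level in library 8 and Krt18 in library 1, and the summed level of the 9 ran from 228 CPM in library 6 to 783 CPM in library 8. The part of cell division or of mixed cell states in the members' values was not tested. In bulk RNA, more cells with a transcript and more transcript per cell cannot be told apart.

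The other genes of the pathway were taken from lists ordered by role, 109 genes beside the members. Of these, 39 stayed under 1 CPM in every library and 13 had 0 counts in all, and 66 passed the filter on low counts. Of the 66, 64 varied beyond counting noise, as did 94.1% of all genes tested. Of the same 66, 26 were variable, or 39.4% against 28% of all genes tested. The counts of variable genes given below for each list can be read against the same 28%. The lists are small, and none was tested against that share. The median of their ranges, in log2 units, was 0.91, and that over all genes tested was 0.69. The middle library of each run was the highest for 28 of the 66 (42.4% against 28.6% of all genes) and the lowest for 16 (24.2% against 29.5%). Libraries 2, 5 and 8 lay above the other 6 without overlap for 16 of the 66 (24.2% against 19% of all genes). They lay below the other 6 for 14 (21.2% against 20.1%). At every place, 27 of the 66 were lower from run to run (40.9% against 12.6% of all genes) and 3 were higher (4.55% against 13.5%).

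BMP ligand genes other than Bmp4 were near silent. Of 13, 4 had 0 counts, 11 stayed under 1 CPM in every library and 0 passed the filter. The exceptions were Bmp6, with 2.68 CPM at most (library 1) and 0.0547 at least (library 9), and Bmp8a, at most 1.67 CPM in library 8. Of 13 activin, nodal and other ligand genes 3 had 0 counts, Inha among them, 8 stayed under 1 CPM in every library, and 5 were tested, of which 2 were variable. Inhbb, which encodes the activin beta B chain, was at 866, 1097 and 800 CPM for titles 1 to 3, at 551, 874 and 568 for 4 to 6 and at 308, 637 and 337 for 7 to 9, and was variable. Inhba, the beta A chain gene, ran from a low of 70.1 (library 8) to 135 CPM (library 9), under 2-fold. Lefty2, an inhibitor of nodal signalling, was variable and ran from a low of 388 (library 1) to 978 CPM (library 6), while Nodal itself reached 0.0693 CPM at most.

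None of the 4 tested type I receptor genes and none of the 4 tested type II receptor genes was variable. All 8 varied beyond counting noise, as did 94.1% of all genes tested. Their median log2 ranges were 0.65 for type I and 0.81 for type II, against 0.69 for all genes tested. Acvr1b, a type I receptor of activins, had the widest range of the former, from a low of 25.4 (library 7) to 48.7 CPM (library 5). As for 20.1% of all genes tested, libraries 2, 5 and 8 lay below the other 6 for Tgfbr1, the type I receptor of TGF-beta. Tgfbr1 was at 156 to 159 CPM there and at 197 to 242 CPM in the other 6. Tgfbr2, its type II partner, was highest in library 2 at 273 CPM and lowest in library 7 at 162 CPM, and the BMP receptor gene Bmpr1a ran only from 172 to 212 CPM. Acvr2b and Acvr2a had the widest ranges of the tested type II genes, from 3.29 to 6.34 and from 35.8 to 65.4 CPM. Acvrl1, a type I receptor gene that did not pass the filter, ran from 0.164 (library 9) to 1.19 CPM (library 2). Its 7.28-fold range (2.32 to 36.7) starts from 3 counts. Amhr2, an untested type II receptor gene, had 1 count in library 1 and reached 0.420 CPM in library 7.

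Of 4 tested co-receptor genes 3 were variable. The pseudoreceptor gene Bambi did not pass the filter, with 1.36 CPM at most (library 2) and 0.0547 at least (library 9). Eng, which encodes the TGF-beta and BMP co-receptor endoglin, was at 121, 83.8 and 78.0 CPM for titles 1 to 3, at 65.4, 52.7 and 32.2 for 4 to 6 and at 18.7, 18.4 and 8.86 for 7 to 9. The 3 runs of titles did not overlap, a falling order that 1.8% of all genes tested had. Rgma, a BMP co-receptor gene, ran from a low of 14.7 (library 7) to 38.8 CPM (library 2). Its libraries 2, 5 and 8 lay above the other 6, as for 19% of all genes tested. Tgfbr3, the betaglycan gene, ran from a low of 52.6 (library 7) to 129 CPM (library 2). Eng is also known from endothelium. Of 5 endothelial markers Cdh5 had 0 counts in all libraries, and Pecam1, Kdr and Tek stayed under 1 CPM. Vwf was variable, from a low of 1.11 (library 2) to 4.25 CPM (library 7), and the summed level of the 5 ran from 1.39 CPM in library 2 to 4.65 CPM in library 7. The part of endothelial cells in the Eng values was not tested.

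Of 6 receptor-regulated and common SMAD genes, Smad9 was variable, from a low of 0.346 (library 7) to 2.02 CPM (library 2). Smad1, Smad3, Smad4 and Smad5 had ranges of 0.48 to 0.70 on the log2 scale and Smad2 0.36. Smad4 was lower in libraries 2, 5 and 8 (68.3 to 75.8 CPM) than in the other 6 (92.5 to 95.3 CPM). Of 10 intracellular negative regulators 5 were variable. Nedd4l, a ubiquitin ligase gene of this pathway, was at 102, 94.7 and 93.2 CPM in libraries 2, 5 and 8. It was between 196 and 374 CPM in the other 6. Smurf1, another ubiquitin ligase gene, was at 115, 127 and 137 CPM against 186 to 266 CPM. Smad4, Nedd4l and Smurf1 were thus lower in libraries 2, 5 and 8, as were 20.1% of all genes tested. Pmepa1, a TGF-beta target that dampens the pathway, ran from a low of 273 (library 7) to 612 CPM (library 2), and Tgif2 and Ldlrad4 were highest in library 5 (8.94 CPM) and in library 8 (12.7 CPM).

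Of 14 extracellular antagonist genes 6 passed the filter and 2 were variable. Fst, the follistatin gene, was at 16.6, 19.4 and 17.2 CPM in libraries 2, 5 and 8 and at 5.80 to 7.80 CPM in the other 6. Chrd, the chordin gene, ran from a low of 1.61 (library 7) to 3.90 CPM (library 1), and Nog, the noggin gene, stayed under 0.455 CPM. Of the genes that store and activate latent TGF-beta 10 of 12 were tested and 6 were variable, against 28% of all genes tested. Lrrc32, which encodes the latent TGF-beta anchor GARP, was at 99.1, 59.1 and 60.4 CPM for titles 1 to 3, at 53.1, 32.2 and 27.4 for 4 to 6 and at 13.7, 11.3 and 6.89 for 7 to 9, again with no overlap between runs. Thbs1, whose product activates latent TGF-beta, was at 1475, 1617 and 1526 CPM in libraries 2, 5 and 8. It was at 191 to 663 CPM in the other 6. Fst and Thbs1 thus had these 3 libraries above the other 6, as had 19% of all genes tested. Ltbp1, Ltbp2, Itgb8 and Fbn1 were the other variable genes of this list, with Ltbp2 from a low of 4.82 (library 7) to 28.0 CPM (library 2).

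**Figure D4:**
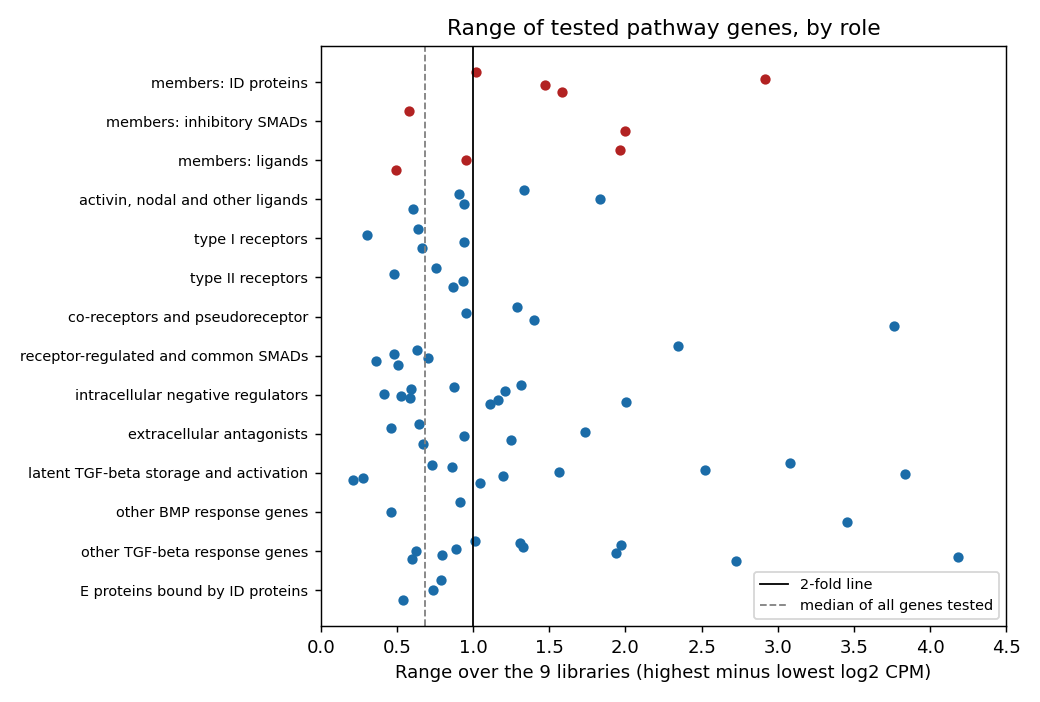
Range over the 9 libraries (highest minus lowest log2 CPM) of each tested gene, 1 point per gene and 1 line per role, members in red and the other pathway genes in blue; the solid line marks 2-fold and the dashed line the median of all genes tested (0.69). Type I and type II receptor genes and E protein genes all lie left of the 2-fold line, and Ccn2, Lrrc32 and Eng lie farthest to the right.

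Target genes of the pathway varied unevenly. Of 7 other BMP response genes 3 were tested and 1 was variable. That was Atoh8, a BMP-induced transcription factor gene, at 2.54, 7.22 and 3.08 CPM for titles 1 to 3, at 1.81, 6.62 and 1.66 for 4 to 6 and at 0.841, 4.74 and 0.602 for 7 to 9, with libraries 2, 5 and 8 above the other 6. Runx2 and Hey1 had ranges under 2-fold, and Msx1 and Msx2 had 0 counts in all libraries. Of 12 other TGF-beta response genes 11 were tested, 6 were variable, and all 6 were highest in library 2, 5 or 8, against 51.9% of all variable genes. Ccn2, a matricellular protein gene, was at 71.2, 176 and 69.8 CPM for titles 1 to 3, at 34.2, 138 and 28.1 for 4 to 6 and at 11.9, 77.1 and 9.63 for 7 to 9. Acta2, the smooth muscle actin gene, was at 171, 249 and 245 CPM in libraries 2, 5 and 8 and at 37.5 to 63.6 CPM in the other 6, and Snai1, a repressor of epithelial genes, at 37.3, 44.9 and 56.6 CPM against 14.4 to 21.5 CPM. Col1a1 and Timp1 were also variable. Cdkn2b, the gene of the cell cycle inhibitor p15, had a range under 2-fold. It was lower in libraries 2, 5 and 8 (70.6 to 75.8 CPM) than in the other 6 (88.7 to 122 CPM). The same held for 20.1% of all genes tested. Libraries 2, 5 and 8 lay above the other 6, as for Atoh8, Ccn2, Acta2 and Snai1, in 19% of them.

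**Figure D5:**
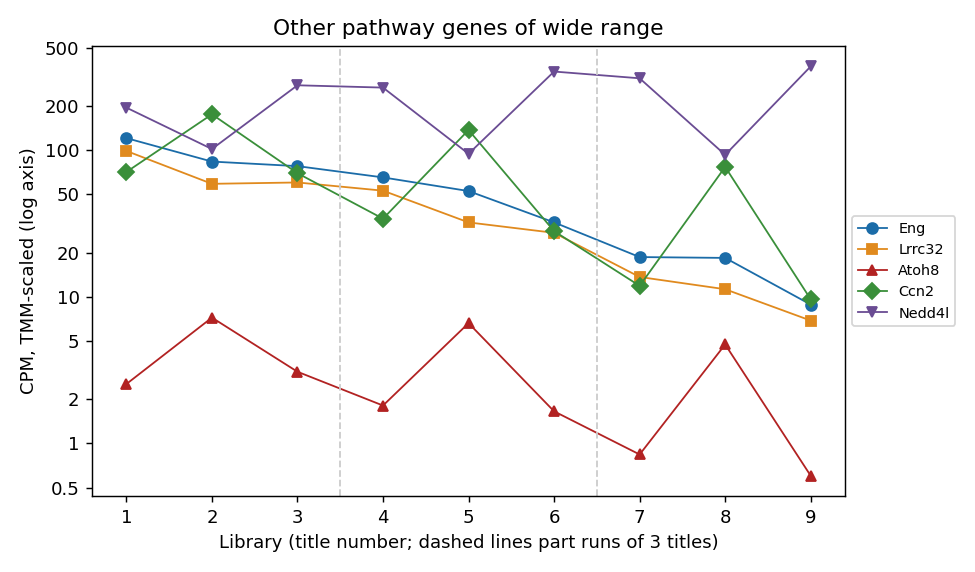
TMM-scaled CPM (log axis) of Eng, Lrrc32, Atoh8, Ccn2 and Nedd4l in libraries 1 to 9; thin lines only join the points and dashed lines part runs of 3 titles. Eng and Lrrc32 are lower in each run than in the one before, Atoh8 and Ccn2 peak in libraries 2, 5 and 8, and Nedd4l is lowest there.

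The E protein genes, whose products the ID proteins bind, varied by less than 2-fold. Tcf3 ran from a low of 65.0 (library 9) to 108 CPM (library 2). Tcf4 was at 149, 128 and 127 CPM in libraries 2, 5 and 8 and at 86.2 to 113 CPM in the other 6. Tcf12 was at 151, 146 and 149 CPM in those libraries and at 179 to 212 CPM in the other 6. Tcf4 and Tcf12 thus lay on opposite sides. Libraries 2, 5 and 8 lay above the other 6 for 19% of all genes tested and below them for 20.1%.

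The genes most like Id1, Id2 and Id3 over the 9 libraries were found by the root mean square difference of median-centred log2 CPM, among 1863 genes that averaged 5 CPM or more and ranged 2-fold or more. For Id3 they were Ror1 (0.16), Pcdh18 (0.20) and Fam43a (0.21), all lowest in library 7 and highest in library 2. For Id1 they were Mtbp (0.17), Dph2 (0.18) and Rcl1 (0.18), all lowest in library 2. For Id2 they were Wnk4 (0.14), Hoxa5 (0.15) and Irx3 (0.15), all lowest in library 9 and highest in library 2.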

How the data were processed

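The authors deposited 1 table of RSEM expected counts per gene, already whole numbers and not normalized, with a column for each of the 9 libraries; 0 columns lacked a sample. The submitters' processing notes name cutadapt 2.3, STAR 2.7.8a, RSEM 1.3.3 and GRCm38; no source used here states the annotation release or the strand setting. Reads that match more than 1 gene are shared out by RSEM according to likelihood. The 5 reporter rows held 0 counts.

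Counts were scaled with TMM in edgeR 4.0.16 (R 4.3.3), and log2 CPM used a prior count of 2. The edgeR filter without groups (10 counts at the median library size, 15 in total) asks for the minimum in every library and kept 12813 genes, with 99.9% of counts. Genes near 0 in some libraries, such as Bambi and Bmp6, were therefore left out of the tested and variable counts even where their range was wide. A chi-square test of dispersion against counting noise was run on the genes kept, since edgeR's quasi-likelihood test needs groups. Checked on simulated counts for the 9 libraries, it called 100 of 100 genes changed 3-fold and 0 of 100 changed 1.5-fold, as its 2-fold line requires, and 1 unchanged gene among 13365 tested. The simulated counts held counting noise only, and the changed genes averaged at least 5 CPM. The check therefore gives no rate of false calls where libraries differ by more than counting noise. It also does not cover changes in genes as low as Id2 and Id4. Fold intervals are exact conditional binomial 95% intervals and cover counting error only. The highest and lowest libraries were picked from the same counts, and the intervals do not allow for that choice. It tends to make folds too large, most of all at low counts such as those of Id2 and Id4. Exon lengths and gene coordinates are from GENCODE M21.

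Members and lists were chosen with earlier results of these data known. Named genes are the members, the widest and the variable genes of each list, and the nearest genes of Id1, Id2 and Id3; a few variable genes are counted only, and genes under 2-fold named for contrast were chosen after their values were seen. One gene counted among the TGF-beta response genes is not reported by name here.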

Additional observations from a re-analysis of the deposited data

How the results depend on the processing

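Over 16 alternatives (RLE factors, library totals alone, no filter, a filter on a mean of 1 CPM, prior counts of 0.5 and 5, a 1.5-fold line and leaving out each library), the count of variable members stayed within 1.5 times 6. The count of variable genes moved from 3592 to 6412 without a filter, which tested 27105 genes, and to 7267 with the 1.5-fold line. Leaving out 1 library gave 3268 to 3560 variable genes and 5 to 6 variable members. Without 1 library, the log2 range was 1.12 to 1.59 for Id1, 1.12 to 1.499 for Id2, 2.55 to 2.92 for Id3, 0.82 to 1.02 for Id4, 1.91 to 2.00 for Smad6 and 1.73 to 1.96 for Tgfb3. With the line kept at 2-fold, only Id4 and Tgfb2 crossed it under any of these alternatives. Id4 fell to 0.94 with totals alone, 0.98 without a filter, 0.98 with a prior count of 5, 0.997 with the filter on mean CPM, and without library 2, 5, 6, 7 or 9. Tgfb2 rose to 1.03 with totals alone and 1.002 without a filter. The 4 members with libraries 2, 5 and 8 above the other 6 were counted as 4 under each other scaling and filter, alternatives that were added after the data were seen. No paired analysis was possible because the labels tie no library to a group or a replicate number. Depth limits Id2 and Id4, with 23 to 145 counts a library, and Bmp4.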

Other observations

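Over all 12813 genes tested, libraries 2, 5 and 8 stood apart from the other 6 for more genes than any run of 3 titles did. All 3 of libraries 2, 5 and 8 lay above the other 6 for 2438 genes and below them for 2578. The other places were closer to the runs, with libraries 1, 4 and 7 above for 812 genes and below for 563. Libraries 3, 6 and 9 lay above for 660 and below for 443. Libraries 1 to 3 lay above the other 6 for 502 genes and below for 347, libraries 7 to 9 above for 420 and below for 525, and libraries 4 to 6 above for 5 and below for 4. No label gives a meaning to either arrangement, and no library was assigned from these values.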
